A study of Mus musculus with 8 samples.

Results

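The receptor chains described here bind or transmit the signals of IL-12, IL-18, IL-10, IL-6 and interferon gamma. The 10 chains are Il12rb1, Il12rb2, Il18r1, Il18rap, Il10ra, Il10rb, Il6ra, Il6st, Ifngr1 and Ifngr2, out of 47937 genes in the deposited count table. They were chosen by name, as cytokine receptor chains outside the common gamma chain family. Results of the same comparison were already known when they were chosen, so their differences between the groups are given as a description and support nothing further. All 10 had enough counts to be among the 14633 genes tested.

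RNA was sequenced from sorted mature CD8 single-positive (CD8SP) thymocytes, gated as TCRb+ and MHC-I high, of mice aged 6 to 7 weeks. The 4 Ndrg3ctrl libraries came from mice with the genotype Ndrg3 +/fl;Lck-cre+, and the 4 Ndrg3TKO libraries from mice with the genotype Ndrg3 fl/fl;Lck-cre+. Both groups therefore carried the Cre transgene, whose Lck promoter is active in the T lineage from an early thymic stage, and the controls kept one intact Ndrg3 allele beside a floxed one. The libraries are labelled as biological replicates 1 to 4 of each group. Their total counts ranged from 21126698 to 32668081, so that 3 counts, the floor used here, equal 0.0918 to 0.142 CPM, counts scaled to the library total.

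Ndrg3, the deleted gene, was checked first. Its normalized count, the count scaled for library size by the TMM method to the mean library total, was 2292, 2357, 2348 and 2341 in Ndrg3ctrl replicates 1 to 4 and 1459, 1401, 1536 and 1599.97 in Ndrg3TKO replicates 1 to 4. Every Ndrg3TKO library was below every control library. On the log2 scale the difference was −0.64 ± 0.0526, with its standard error after the sign ± as for every log2 fold change here (adjusted p = 1.04e-05, edgeR's quasi-likelihood test, Benjamini-Hochberg over all tested genes). The reads were counted over all exons of Ndrg3, so this value does not measure the deleted stretch alone. Markers of mature CD8SP thymocytes were abundant. All 13 of that list were tested and none passed the threshold, an adjusted p under 0.05. B2m, Cd8a and H2-K1 had the highest counts of the list, and the log2 fold change of Cd8a was −0.02 ± 0.0589 (adjusted p = 0.948, edgeR). The 4 Y-linked genes followed reached a total of 340 CPM in Ndrg3ctrl replicate 2, 379 in Ndrg3TKO replicate 2 and 416 in Ndrg3TKO replicate 3. In the remaining 5 libraries that total was at most 0.0752 CPM, so 1 Ndrg3ctrl and 2 Ndrg3TKO libraries were over 1 CPM.

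Each of these cytokines binds a receptor made of a ligand-binding chain and a partner that is needed for signalling. The receptors of IL-12, IL-10, IL-6 and interferon gamma signal through JAK kinases and STAT transcription factors, such as STAT4 for IL-12 and STAT3 for IL-10 and IL-6, whereas the IL-18 receptor belongs to the IL-1 receptor family and signals through Myd88 and IRAK kinases. In CD8 T cells, IL-12 and IL-18 are known to drive interferon gamma production, and gp130, the protein of Il6st, is shared by IL-6, IL-11, LIF, oncostatin M and IL-27.

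The chains differed widely in level. Levels were compared between genes as RPKM, the TMM-scaled CPM per kilobase of exon. Il6st was the most abundant chain, with 54.4 ± 3.74 RPKM in Ndrg3ctrl and 64.2 ± 5.33 RPKM in Ndrg3TKO (SD, n = 4 in each group, as for all means here). The interferon gamma receptor chains came next. Ifngr1, the ligand-binding chain, had 28.9 ± 2.31 RPKM in Ndrg3ctrl and 31.8 ± 1.03 RPKM in Ndrg3TKO. Ifngr2, its signalling partner, had 21.6 ± 0.848 RPKM in Ndrg3ctrl and 21.1 ± 1.23 RPKM in Ndrg3TKO. In both groups these 3 chains did not overlap with each other or with the chains below them.

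Il6ra and Il10rb formed the next step and overlapped in both groups. Il6ra, the IL-6 binding chain, had 10.9 ± 0.919 RPKM in Ndrg3ctrl and 9.32 ± 0.885 RPKM in Ndrg3TKO. Il10rb, a chain that IL-10 shares with IL-22 and interferon lambda, had 9.46 ± 0.689 RPKM in Ndrg3ctrl and 10.3 ± 0.195 RPKM in Ndrg3TKO. Below them in Ndrg3ctrl stood Il12rb1 at 5.19 ± 0.367 RPKM, then Il10ra at 3.36 ± 0.419 RPKM and Il12rb2 at 3.22 ± 0.352 RPKM, which overlapped, and then Il18r1 at 2.04 ± 0.326 RPKM. The order of these 4 was another in Ndrg3TKO. There Il12rb1 had 4.12 ± 0.377 RPKM and overlapped with Il18r1 at 3.71 ± 0.314 RPKM, while Il12rb2 at 2.35 ± 0.395 RPKM and Il10ra at 2.24 ± 0.295 RPKM overlapped below them. Il18rap was the lowest chain in both groups, with 0.164 ± 0.0347 RPKM in Ndrg3ctrl and 0.162 ± 0.0475 RPKM in Ndrg3TKO. The control level of Il6st was 332 times that of Il18rap.

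**Figure D1:**
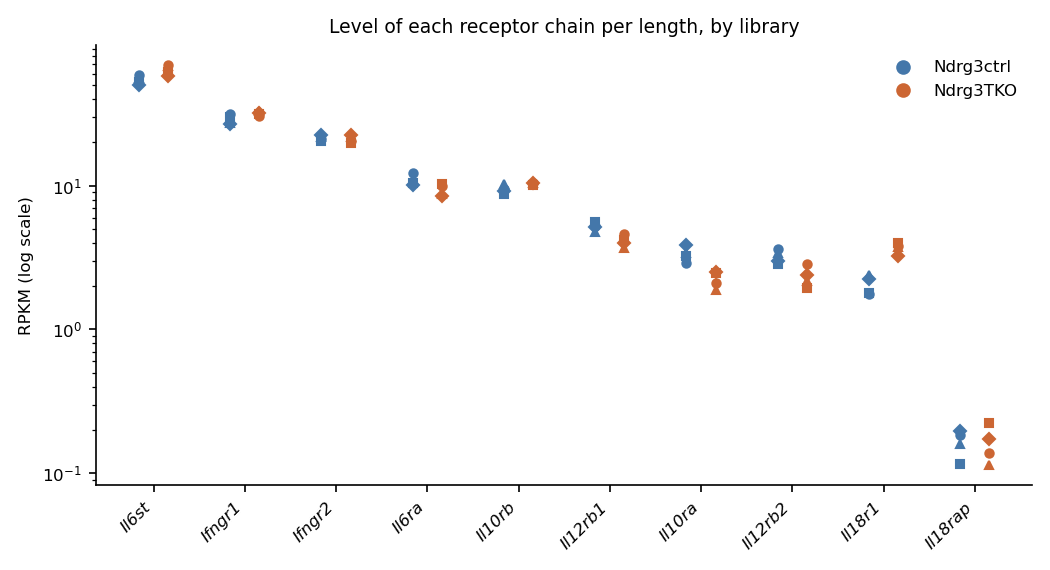
Level of each receptor chain in RPKM, on a log scale, in the 8 libraries, ordered by the mean of Ndrg3ctrl; each point is 1 library, and its shape gives the replicate number as in the plot of normalized counts by library. Il6st lies at the top, Il18rap lies far below the other chains at about 0.16 RPKM, and Il18r1 is the chain whose Ndrg3TKO points lie highest above its Ndrg3ctrl points.

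Across the whole transcriptome, 168 genes, or 1.15% of those tested, passed the threshold, 116 of them higher in Ndrg3TKO (0.793%) and 52 lower (0.355%). Of the 10 receptor chains, 2 passed: Il18r1 was higher and Il10ra was lower in Ndrg3TKO. The 4 libraries of one group did not overlap with the 4 of the other in 3 of the 10 chains, Il12rb1 being the third, whereas 7.04% of all tested genes showed no overlap. The log2 fold change was negative in 6 chains and positive in 4, with a median of −0.03, beside −0.00 over all tested genes. The median size of the log2 fold change regardless of sign was 0.23 in the chains and 0.09 over all tested genes. An unadjusted p under 0.05 was seen for 7 of the 10 chains and for 10.9% of all tested genes. RNA of a sorted population was measured, so fewer cells of a type and less RNA per cell cannot be told apart in any of these values.

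**Figure D2:**
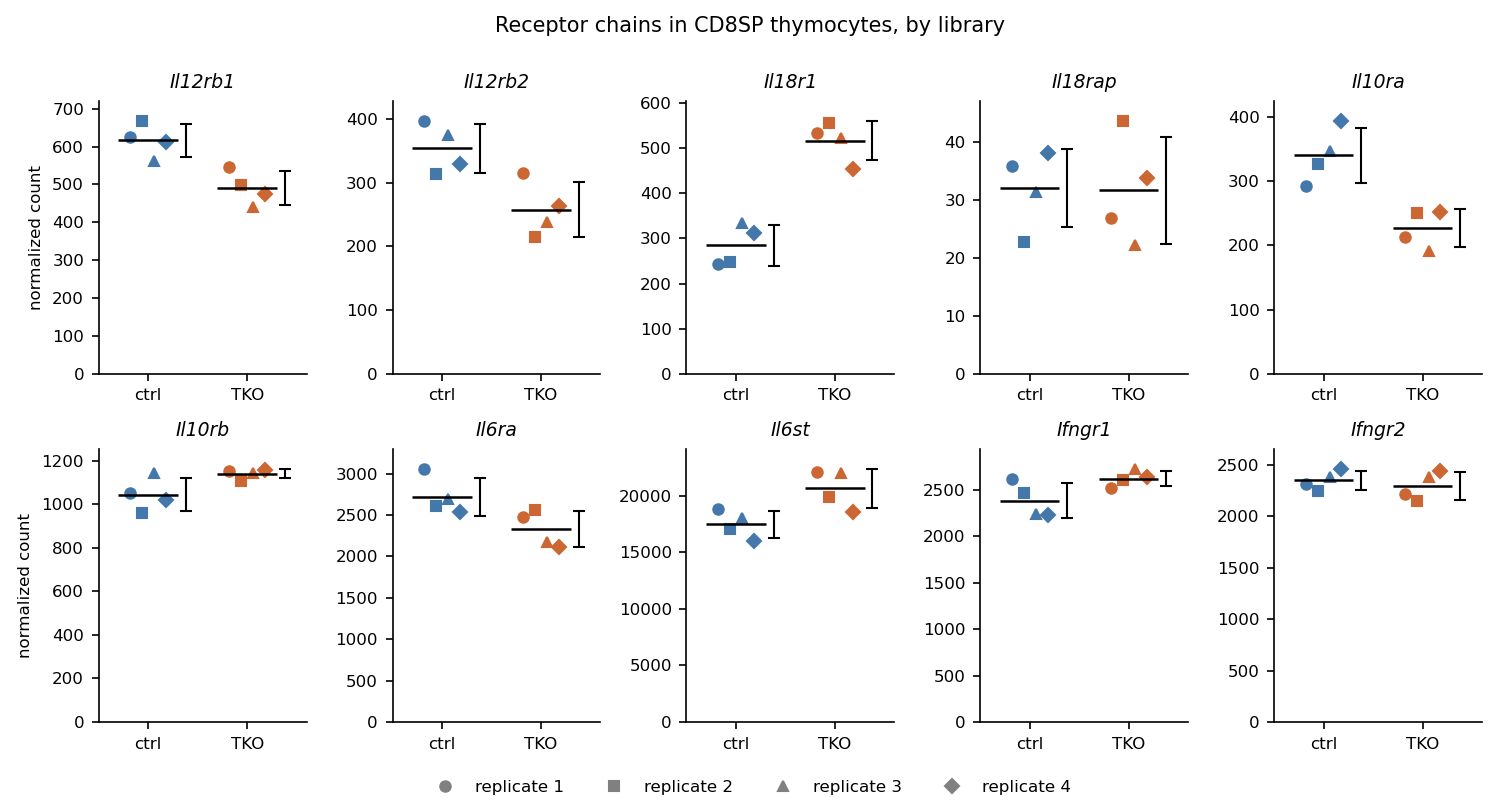
Normalized count of each receptor chain in each library, with the y axis starting at 0; each point is 1 library, the horizontal line is the group mean and the bar beside it spans 1 SD on either side. The groups lie apart for Il12rb1, Il18r1 and Il10ra and overlap for the other 7 chains.

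Il18r1 encodes the chain that binds IL-18. On mouse chromosome 1 it spans 40465552 to 40500854 on the plus strand (GRCm38; ENSMUSG00000026070). Its normalized count was 244, 249, 335 and 312 in Ndrg3ctrl replicates 1 to 4 and 533, 557, 524 and 455 in Ndrg3TKO replicates 1 to 4. The lowest Ndrg3TKO library was above the highest control library. The mean was 285 ± 45.4 in Ndrg3ctrl and 517 ± 43.8 in Ndrg3TKO, or 81.4% higher, and the log2 fold change was 0.85 ± 0.112 (adjusted p = 0.00109, edgeR's quasi-likelihood test). With each library left out in turn it stayed between 0.79 and 0.94, with adjusted p from 0.00137 to 0.00567 by the same edgeR test.

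Il18rap, which encodes the accessory chain needed for IL-18 signalling, is the next gene on the chromosome, on the same strand, with 14507 bases between the genes. It spans 40515362 to 40551705 (ENSMUSG00000026068). The normalized count of Il18rap was 35.9, 22.7, 31.3 and 38.1 in Ndrg3ctrl replicates 1 to 4 and 26.8, 43.6, 22.2 and 33.7 in Ndrg3TKO replicates 1 to 4. The groups overlapped fully. This gave a log2 fold change of −0.03 ± 0.259 (adjusted p = 0.982, edgeR), and with 16 to 48 reads per library its standard error was the largest of the 10 chains. With an error of this size, a difference in Il18rap as large as that of Il18r1 might not have passed the threshold. On the other side of Il18r1 the nearest tested protein-coding gene was Il1rl2, a receptor chain for IL-36, since Il1rl1, which lies between them, was too low to be tested. Il1rl2 differed by 0.10 ± 0.0848 on the log2 scale (adjusted p = 0.709, edgeR). Beyond Il18rap the nearest tested protein-coding gene was Mfsd9, which differed by −0.14 ± 0.148 (log2; adjusted p = 0.791, edgeR).

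RefSeq promoter sequences, each with 250 bases before and 50 bases after a transcription start (GRCm38.p6), matched 7 of the 10 chains with 9 starts in all, 3 of them of Il18r1. The motifs searched on both strands were TTCNNNGAA, the palindromic core bound by STAT factors, AGGTGTGA for T-box factors, TGTGGT for RUNX factors and TGANTCA for AP-1. They occur in 8.30%, 1.28%, 16.8% and 7.81% of all 32851 promoters in that table. A STAT core was found at 1 of the Il18r1 starts, with 2 copies that begin 219 and 152 bases before the start, and in the Il12rb2 promoter, with 1 copy that begins 123 bases before the start. A RUNX motif was found at 1 other start of Il18r1 and, on the opposite strand, within the first 50 bases after the start of Il18rap. No other match to the 4 motifs was found in the 9 windows, and a match is only a run of letters, not a bound site. The Il18r1 window with the STAT cores and the Il18rap window are shown because the genes are adjacent and Il18r1 passed the threshold, and the Il12rb2 window because it holds the other STAT core; each is written 5′ to 3′ on the strand of its gene, with motif matches in capitals.
Il18r1, plus strand, chr1:40465756-40466055: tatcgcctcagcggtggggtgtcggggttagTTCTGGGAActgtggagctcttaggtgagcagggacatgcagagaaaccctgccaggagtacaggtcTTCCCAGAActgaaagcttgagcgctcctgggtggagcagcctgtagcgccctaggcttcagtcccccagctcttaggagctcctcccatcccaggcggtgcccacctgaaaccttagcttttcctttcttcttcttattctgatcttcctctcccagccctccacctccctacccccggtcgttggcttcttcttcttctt
Il18rap, plus strand, chr1:40515112-40515411: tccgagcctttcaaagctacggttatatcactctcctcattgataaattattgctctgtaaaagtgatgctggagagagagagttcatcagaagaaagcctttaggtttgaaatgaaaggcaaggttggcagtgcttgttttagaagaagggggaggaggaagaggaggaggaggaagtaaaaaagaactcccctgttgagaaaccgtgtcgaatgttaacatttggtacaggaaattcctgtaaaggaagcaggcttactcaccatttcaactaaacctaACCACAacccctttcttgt
Il12rb2, minus strand, chr6:67376139-67376438: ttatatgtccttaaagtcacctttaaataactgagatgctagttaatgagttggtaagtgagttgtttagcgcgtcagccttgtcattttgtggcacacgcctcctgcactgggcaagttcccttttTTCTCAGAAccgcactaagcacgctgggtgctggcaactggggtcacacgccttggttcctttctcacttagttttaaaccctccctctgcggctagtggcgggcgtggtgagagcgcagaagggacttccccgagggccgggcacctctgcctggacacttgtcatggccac

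Il12rb1 encodes the chain that IL-12 shares with IL-23, and it spans 70808449 to 70821424 on chromosome 8 (GRCm38; ENSMUSG00000000791). Its normalized count was 625, 668, 562 and 613 in Ndrg3ctrl replicates 1 to 4 and 546, 498, 439 and 475 in Ndrg3TKO replicates 1 to 4. The groups did not overlap, with 546 in the highest Ndrg3TKO library and 562 in the lowest control library. The mean was 617 ± 43.6 in Ndrg3ctrl and 489.6 ± 44.7 in Ndrg3TKO, and the log2 fold change of −0.33 ± 0.0847 did not pass the threshold (adjusted p = 0.0923, edgeR's quasi-likelihood test).

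Il12rb2, the signalling chain of the IL-12 receptor, spans 67291318 to 67376188 on the minus strand of chromosome 6 (ENSMUSG00000018341). The normalized count of Il12rb2 was 397, 314, 375 and 329 in Ndrg3ctrl replicates 1 to 4 and 315, 214, 238 and 263 in Ndrg3TKO replicates 1 to 4. Only Ndrg3TKO replicate 1 reached the control range, and it exceeded the lowest control library by a narrow margin. Means of 354 ± 38.6 in Ndrg3ctrl and 258 ± 43.3 in Ndrg3TKO gave a log2 fold change of −0.46 ± 0.125 (adjusted p = 0.12, edgeR). Both IL-12 receptor chains passed the same threshold with DESeq2, at adjusted p = 0.0221 for Il12rb1 and 0.0312 for Il12rb2, so their call depends on the method. Without Ndrg3TKO replicate 1, Il12rb2 passed in edgeR, at −0.57 on the log2 scale and an adjusted p of 0.0469. Of the 3794 exon bases of Il12rb2, 1519 are shared with Serbp1 on the opposite strand, a far more abundant gene. Whether reads were counted by strand is not given in the sources used here, so the count of Il12rb2 and its level are uncertain. Serbp1 itself had a log2 fold change of 0.09 ± 0.0515 (adjusted p = 0.573, edgeR), opposite in sign to that of Il12rb2.

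Il10ra encodes the chain that binds IL-10, and it spans 45253837 to 45269149 on the minus strand of chromosome 9 (GRCm38; ENSMUSG00000032089). Its normalized count was 292, 327, 347 and 393 in Ndrg3ctrl replicates 1 to 4 and 213, 251, 191 and 252 in Ndrg3TKO replicates 1 to 4. Every Ndrg3TKO library was below every control library. The mean was 339.7 ± 42.4 in Ndrg3ctrl and 227 ± 29.8 in Ndrg3TKO, or 33.3% lower, and the log2 fold change was −0.58 ± 0.121 (adjusted p = 0.0339, edgeR's quasi-likelihood test). This call rested on single libraries. The adjusted p in edgeR was 0.103 without Ndrg3TKO replicate 1, 0.116 without Ndrg3TKO replicate 3, 0.0936 without Ndrg3ctrl replicate 3 and 0.105 without Ndrg3ctrl replicate 4, while the log2 fold change stayed between −0.65 and −0.50 with any library left out. In the 5 libraries under 1 Y-linked CPM, an alternative chosen after seeing the data, it was −0.56 (adjusted p = 0.132, edgeR).

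Il10rb spans 91406164 to 91425834 on chromosome 16 (ENSMUSG00000022969). Il10rb had a normalized count of 1049, 959, 1141 and 1019.6 in Ndrg3ctrl replicates 1 to 4 and 1150.2, 1108, 1144 and 1155 in Ndrg3TKO replicates 1 to 4. The groups overlapped at Ndrg3ctrl replicate 3, and the Ndrg3TKO libraries lay close together. Il10rb differed by 0.13 ± 0.0624 on the log2 scale (adjusted p = 0.487, edgeR). The genes next to the IL-10 receptor chains gave no call either. Scn2b and Cep164, on either side of Il10ra, had log2 fold changes of −0.32 ± 0.253 and 0.04 ± 0.0584. Ifnar2 and Ifnar1, the type I interferon receptor genes on either side of Il10rb, had log2 fold changes of 0.12 ± 0.0505 and 0.04 ± 0.0444. Adjusted p in edgeR was 0.696 for Scn2b, 0.859 for Cep164, 0.384 for Ifnar2 and 0.817 for Ifnar1.

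Il6ra spans 89864059 to 89913196 on the minus strand of chromosome 3 (ENSMUSG00000027947). Il6ra had a normalized count of 3054, 2605, 2689 and 2538 in Ndrg3ctrl replicates 1 to 4 and 2479, 2561, 2178 and 2109.6 in Ndrg3TKO replicates 1 to 4. Ndrg3TKO replicates 1, 3 and 4 were below all controls, and replicate 2 lay within the control range. Il6ra differed by −0.22 ± 0.0734 on the log2 scale (adjusted p = 0.227, edgeR). With the replicate number as a block, an alternative described below, it passed (adjusted p = 0.00879, edgeR). An antisense gene shares 242 of the 8642 exon bases of Il6ra, with at most 24 reads of its own in any library.

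Il6st spans 112464070 to 112510086 on the plus strand of chromosome 13 (ENSMUSG00000021756). The normalized count of Il6st was 18812, 17050.0, 17982 and 16023 in Ndrg3ctrl replicates 1 to 4 and 22051, 19903, 22031 and 18559 in Ndrg3TKO replicates 1 to 4. Only Ndrg3TKO replicate 4 lay within the control range. With 0.24 ± 0.0712 (adjusted p = 0.164, edgeR), its log2 fold change was opposite in sign to that of its partner Il6ra. Il6st also passed with the replicate block (adjusted p = 0.00155, edgeR).

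Ifngr1 spans 19591949 to 19610229 on chromosome 10 (ENSMUSG00000020009), and its normalized count was 2618, 2463, 2235 and 2225 in Ndrg3ctrl replicates 1 to 4 and 2519.9, 2601, 2724 and 2641 in Ndrg3TKO replicates 1 to 4. The groups overlapped, and the log2 fold change was 0.14 ± 0.0588 (adjusted p = 0.413, edgeR). Ifngr2 spans 91547072 to 91565623 on chromosome 16 (ENSMUSG00000022965), near Il10rb in a cluster of class II cytokine receptor genes. Ifngr2 had a normalized count of 2317, 2245, 2384 and 2461 in Ndrg3ctrl replicates 1 to 4 and 2219.9, 2153, 2379.9 and 2438 in Ndrg3TKO replicates 1 to 4. The groups overlapped here as well, at −0.03 ± 0.0544 on the log2 scale (adjusted p = 0.871, edgeR). The remaining neighbours were Mast3 and Arrdc2 beside Il12rb1, Rpia beside Il12rb2, She and Atp8b2 beside Il6ra, Ankrd55 and Slc38a9 beside Il6st, Tnfaip3 and Pex7 beside Ifngr1, and Tmem50b beside Ifngr2. None of them passed the threshold, and their log2 fold changes lay between −0.15 for Arrdc2 and 0.19 for Ankrd55.

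**Figure D3:**
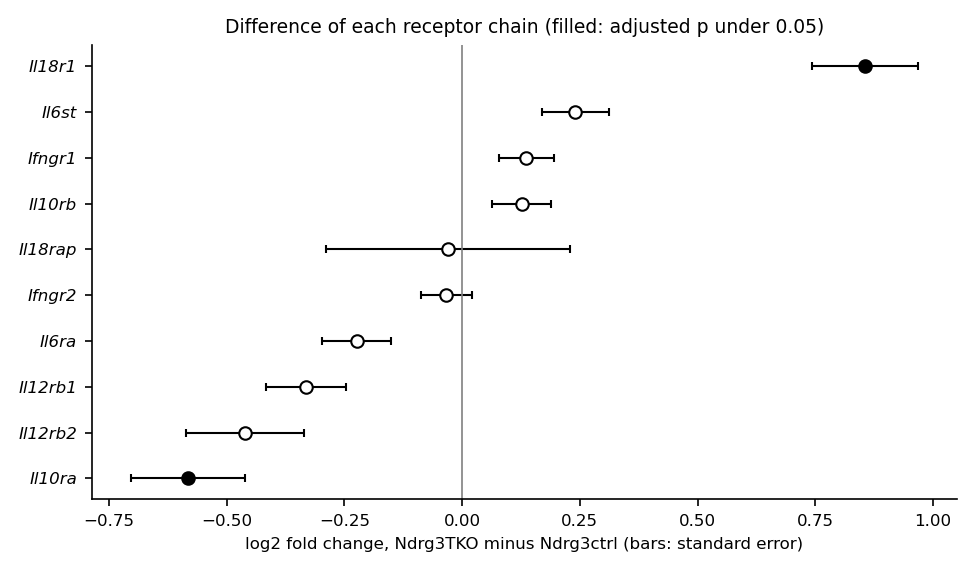
Log2 fold change of each receptor chain between Ndrg3TKO and Ndrg3ctrl with its standard error, ordered by value; filled points passed an adjusted p of 0.05 in edgeR. Il18r1 at 0.85 and Il10ra at −0.58 are filled, and Il18rap has the widest bar.

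The ratio of the partner chains lay apart between the groups in 3 of the 5 receptors, and the share of other gene pairs that lie apart was not computed. The ratio of Il18r1 to Il18rap, in RPKM within each library, was 9.55, 15.3, 15.0 and 11.5 in Ndrg3ctrl replicates 1 to 4 and 27.8, 17.9, 33.03 and 18.9 in Ndrg3TKO replicates 1 to 4. The groups did not overlap, and the mean ratio was 12.8 ± 2.80 in Ndrg3ctrl and 24.4 ± 7.28 in Ndrg3TKO. Il18rap, the denominator, was the chain with the widest spread between libraries, with a coefficient of variation of 21.2% in Ndrg3ctrl and 29.4% in Ndrg3TKO. The ratio of Il10ra to Il10rb was 0.303, 0.371, 0.331 and 0.42 in Ndrg3ctrl replicates 1 to 4 and 0.201, 0.246, 0.182 and 0.238 in Ndrg3TKO replicates 1 to 4. It lay below the control range in every Ndrg3TKO library, with means of 0.356 ± 0.0510 and 0.217 ± 0.0303.

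The ratio of Il6ra to Il6st had the narrowest spread in the controls. It was 0.208, 0.196, 0.192 and 0.203 in Ndrg3ctrl replicates 1 to 4 and 0.144, 0.165, 0.127 and 0.146 in Ndrg3TKO replicates 1 to 4. The groups did not overlap, with means of 0.200 ± 0.00733 and 0.146 ± 0.0156. Neither chain on its own passed the threshold in edgeR without the replicate block, and both passed with it. The ratios of Il12rb1 to Il12rb2 and of Ifngr1 to Ifngr2 overlapped between the groups. The former was 1.63 ± 0.265 in Ndrg3ctrl and 1.78 ± 0.247 in Ndrg3TKO, and the latter 1.35 ± 0.149 and 1.51 ± 0.0678. These ratios use the same counts as the fold changes above and carry no test.

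**Figure D4:**
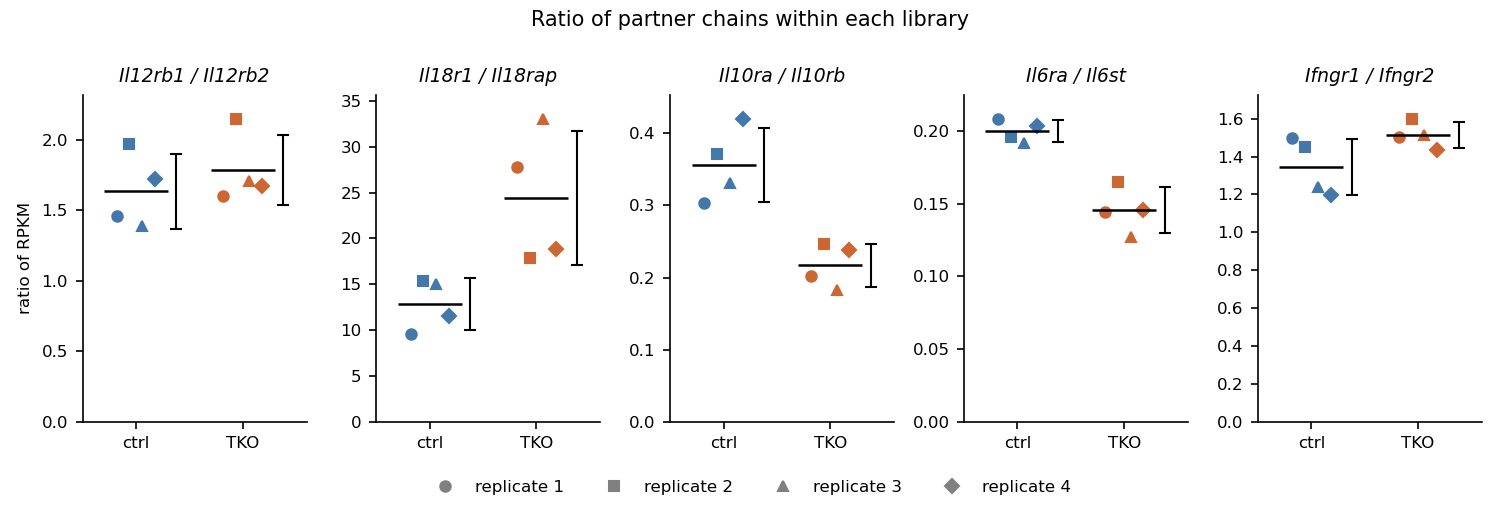
Ratio of the RPKM of the partner chains of each receptor in each library, with the y axis starting at 0; each point is 1 library, the line is the group mean and the bar beside it spans 1 SD on either side. The groups lie apart for Il18r1 to Il18rap, Il10ra to Il10rb and Il6ra to Il6st.

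Other genes of these pathways were read from lists, each described by its count past the threshold. Abundance within a list, here and for the markers below, is ranked by mean scaled count with no correction for gene length. Among 13 cytokine ligands of these receptors, 3 had enough counts to be tested and none passed. Clcf1, a gp130 cytokine, had a normalized count of 4111 ± 489 in Ndrg3ctrl and 3972 ± 232 in Ndrg3TKO. Osm, which encodes oncostatin M, had a log2 fold change of −0.29 ± 0.0937 (adjusted p = 0.22, edgeR). Lif was low, with 6.79, 11.4, 8.81 and 6.35 normalized counts in Ndrg3ctrl replicates 1 to 4 and 16.3, 29.1, 31.9 and 14.2 in Ndrg3TKO replicates 1 to 4, groups that did not overlap. Its log2 fold change of 1.47 ± 0.367 missed the threshold (adjusted p = 0.0823, edgeR). Lif passed with no filter on low counts, and both Lif and Osm passed with the replicate block. No read of Il12a, Il10 or Il27 was counted in any library, and the other ligands were too low to be tested. Of 17 related receptor chains, 9 were tested and none passed. Il27ra, which pairs with gp130 in the IL-27 receptor, was the most abundant of them, and differed by 0.02 ± 0.0517 on the log2 scale (adjusted p = 0.93, edgeR).

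All 15 signal transducers were tested and none passed, and their log2 fold changes lay between −0.15 and 0.12. Jak1, the kinase that most of these receptors use, had a log2 fold change of −0.07 ± 0.0673, and Stat3 one of 0.10 ± 0.0593. Of 14 tested inhibitors, 1 passed, beside 1.15% of all tested genes. Socs3, whose protein binds gp130 and blocks its signal, had a normalized count of 1076, 902, 947 and 1162 in Ndrg3ctrl replicates 1 to 4 and 1593, 1434, 1557 and 1689 in Ndrg3TKO replicates 1 to 4. Every Ndrg3TKO library was above every control library. The log2 fold change was 0.62 ± 0.0797 (adjusted p = 9.59e-04, edgeR's quasi-likelihood test).

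Of 14 tested target genes of STAT3, 2 passed, and both were higher in Ndrg3TKO, beside 0.793% of all tested genes called higher. One was Socs3 again. The other was Bcl6, a transcriptional repressor, with a normalized count of 907, 735, 888 and 872 in Ndrg3ctrl replicates 1 to 4 and 1472, 1201, 1346 and 1156 in Ndrg3TKO replicates 1 to 4. The groups did not overlap, and the log2 fold change was 0.60 ± 0.0860 (adjusted p = 0.00223, edgeR). The log2 fold changes of the list ran from −0.80 to 0.62 with a median of −0.04, beside −0.00 over all tested genes, and 9 of the 14 were negative.

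Of 11 tested target genes of IL-12 and IL-18, 2 passed, and both were lower in Ndrg3TKO, beside 0.355% of all tested genes called lower. Eomes, a T-box transcription factor of CD8 T cells, had a normalized count of 413, 458, 364 and 528 in Ndrg3ctrl replicates 1 to 4 and 150.5, 213, 202 and 170.5 in Ndrg3TKO replicates 1 to 4, a difference of −1.26 ± 0.135 on the log2 scale (adjusted p = 1.70e-04, edgeR). Ccl5, a chemokine gene, had 37.8, 39.8, 33.3 and 32.8 in Ndrg3ctrl replicates 1 to 4 and 4.79, 4.54, 7.73 and 9.77 in Ndrg3TKO replicates 1 to 4, a difference of −2.39 ± 0.295 on the log2 scale (adjusted p = 6.03e-04, edgeR). In both genes the groups did not overlap. The median of the list was −0.06, and Ifng itself was too low to be tested. No target list used here gives a direction of response, and signalling by these cytokines was not tested. None of the 19 tested target genes of interferon gamma passed in edgeR without the replicate block. Their log2 fold changes in that fit had a median of −0.05 and were negative in 13. With the block 4 passed, Nlrc5 as higher and Gbp3, Gbp7 and Irgm1 as lower in Ndrg3TKO. Nlrc5, the activator of MHC class I genes and the most abundant gene of that list, had a log2 fold change of 0.18 ± 0.0605 (adjusted p = 0.229, edgeR), with groups that did not overlap, and passed with DESeq2. Gbp3, another guanylate-binding protein gene, also had groups that did not overlap, at −0.30 ± 0.0998 on the log2 scale (adjusted p = 0.249, edgeR). Tap1, a peptide transporter gene, and Gbp4, a guanylate-binding protein gene, followed in mean count, at 0.04 ± 0.0538 and 0.08 ± 0.0580 on the log2 scale.

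**Figure D5:**
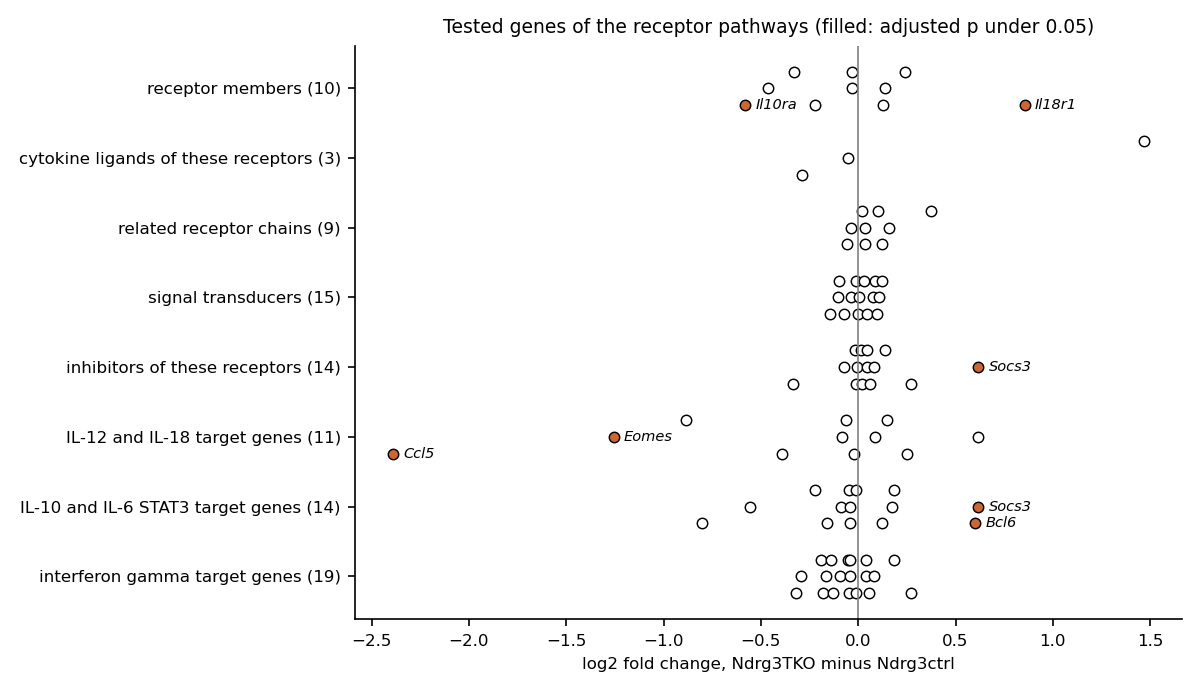
Log2 fold change between Ndrg3TKO and Ndrg3ctrl of the tested genes in each pathway list, with the number tested in parentheses; each circle is 1 gene, the small vertical offsets only separate circles, and filled circles passed an adjusted p of 0.05 in edgeR. Besides Il18r1 and Il10ra, the filled genes are Socs3, which stands in 2 lists, Bcl6, Eomes and Ccl5.

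Markers of other cells were read beside the chains that moved. Il18r1 is also known from NK cells, which a sort for TCRb+ CD8SP cells is meant to remove, and from innate-like and memory-phenotype T cells. Among 7 markers of innate-like T cells or NK cells, 2 were tested and 1 passed, beside 1.15% of all tested genes. It was Klrb1c, an NK receptor gene, with 7.76, 18.5, 5.87 and 3.17 normalized counts in Ndrg3ctrl replicates 1 to 4 and 45.05, 42.7, 58.9 and 58.6 in Ndrg3TKO replicates 1 to 4 (log2 fold change 2.62 ± 0.358, adjusted p = 0.00149, edgeR). Ncr1 and Klra8, defining genes of NK cells, had no read in any library, and the most abundant gene of the list, Trdc, had a log2 fold change of −0.03 ± 0.119. Zbtb16, a transcription factor of innate-like T cells, was too low to be tested, with 9.70, 8.53, 5.87 and 4.23 normalized counts in Ndrg3ctrl replicates 1 to 4 and 1.92, 0.908, 0.966 and 2.66 in Ndrg3TKO replicates 1 to 4, so it was lower in every Ndrg3TKO library. The summed level of the list was 13.0 ± 1.77 CPM in Ndrg3ctrl and 13.9 ± 1.58 CPM in Ndrg3TKO.

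Of 12 memory-phenotype CD8 T cell markers, 9 were tested and 3 passed, beside 1.15% of all tested genes. They were Cxcr3, Ccl5 and Eomes, all of them lower in Ndrg3TKO, where 0.355% of all tested genes were called lower. Ly6c2 also had groups that did not overlap, at −0.73 ± 0.165 on the log2 scale (adjusted p = 0.0632, edgeR). Itga4, an integrin gene and the most abundant of the list, differed the other way with no overlap, by 0.19 ± 0.0553 (log2; adjusted p = 0.142, edgeR), and Nkg7, a cytotoxic granule gene, by 0.23 ± 0.0723 with overlap (log2; adjusted p = 0.203, edgeR). The summed level of that list was 1111 ± 32.8 CPM in Ndrg3ctrl and 1182 ± 31.2 CPM in Ndrg3TKO. S1pr5 had no read, while Itga4 averaged 496 CPM over all libraries, so the sum mostly follows the abundant genes of the list. The part of such cells in the difference of Il18r1 was not tested.

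Il10ra is also known from B cells and myeloid cells, which a sort for TCRb+ CD8SP cells is meant to remove. Of 6 B cell markers, only Cd79b was tested, with 342 ± 31.8 normalized counts in Ndrg3ctrl and 252 ± 15.3 in Ndrg3TKO (log2 fold change −0.43 ± 0.0992, adjusted p = 0.0529, edgeR). The summed level of the list was 12.3 ± 1.04 CPM in Ndrg3ctrl and 9.12 ± 0.417 CPM in Ndrg3TKO. Cd79b averaged 10.3 CPM over all libraries, so this sum mostly repeats the value of Cd79b. Ms4a1 had no read in any library, and Pax5 averaged at most 1.37 normalized counts in either group. Of 10 myeloid markers, 4 were tested and none passed. Cst3, Cd74 and Cd68 were the most abundant, and 2 of the 4 tested had a positive log2 fold change, Cst3 with 0.03 ± 0.103 and Cd68 with 0.11 ± 0.171. The MHC class II gene H2-Aa had 19.9 to 22.3 normalized counts in Ndrg3ctrl and 9.66 to 18.6 in Ndrg3TKO, with no overlap (log2 fold change −0.61 ± 0.274, adjusted p = 0.445, edgeR). Cd74, the invariant chain gene, had a log2 fold change of −0.31 ± 0.126 (adjusted p = 0.377, edgeR), and Fcgr3, too low to be tested, had 2.91 to 8.81 normalized counts in Ndrg3ctrl and 0.908 to 2.90 in Ndrg3TKO. Among the other untested ones, Itgam and Adgre1 had higher means in Ndrg3TKO, and Lyz2, Csf1r and Cd14 had lower means. The summed level of all 10 myeloid markers was 41.5 ± 5.31 CPM in Ndrg3ctrl and 38.6 ± 1.95 CPM in Ndrg3TKO. The part of B cells or myeloid cells in the difference of Il10ra was not tested. Markers of CD4 T cells, 4 of 5 tested, and of double-positive thymocytes, 5 of 7 tested, included no gene past the threshold, with Ctla4 and Cd1d1 the most abundant of the respective lists. Dntt, which encodes the terminal transferase of immature thymocytes, had 409 to 541 normalized counts in Ndrg3ctrl and 554 to 735 in Ndrg3TKO, with no overlap (log2 fold change 0.45 ± 0.110, adjusted p = 0.0783, edgeR). Summed levels in Ndrg3ctrl and Ndrg3TKO were 12.4 ± 2.90 and 13.1 ± 2.12 CPM for CD4 T cells and 56.2 ± 4.40 and 59.4 ± 5.45 CPM for double-positive thymocytes.

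The genes most like Il18r1 over the 8 libraries, by Pearson's correlation of log2 CPM, were Prss30 (r = 0.984), Iqsec1 (0.970), Map3k13 (0.967), Mdfic (0.967) and Gpr34 (0.966). All of these 5 genes were themselves higher in Ndrg3TKO past the threshold, by log2 fold changes from 0.43 for Mdfic to 2.59 for Prss30. The genes most like Il10ra were Zfp870 (r = 0.994), Tnfrsf13c (0.981), Spef2 (0.981), Rfc1 (0.974) and Lcat (0.972). Tnfrsf13c encodes the BAFF receptor, a gene of mature B cells, and its normalized count was 71.7 ± 13.5 in Ndrg3ctrl and 39.0 ± 7.64 in Ndrg3TKO (log2 fold change −0.87 ± 0.204, adjusted p = 0.0622, edgeR). Of the genes most like Il10ra, Spef2 alone passed the threshold (log2 fold change −0.53 ± 0.110, adjusted p = 0.0346, edgeR). Zfp870, the most alike, had a log2 fold change of −0.77 ± 0.190 (adjusted p = 0.0779, edgeR). Rfc1 and Lcat had log2 fold changes of −0.15 ± 0.0514 and −0.48 ± 0.203. The likeness was chosen from all tested genes and includes the difference between the groups, so it is a description of these 8 libraries.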

How the data were processed

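RNA was extracted with a Qiagen RNeasy Plus Micro kit and libraries were made with a stranded, ribosomal RNA depleted Illumina total RNA kit. The authors used cutadapt for trimming, STAR for alignment to GRCm38.p4 and featureCounts for counting per gene, and they deposited raw counts, which are whole numbers and not normalized. The handling of strand and of multimapping reads is not given in the sources used here.

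Gene positions and exon lengths came from GENCODE M21, and 47224 of the 47937 genes (98.5%) matched by Ensembl identifier. The counts of all genes were fitted with edgeR 4.0.16 (R 4.3.3, limma 3.58.1), with filterByExpr, TMM scaling, robust glmQLFit, glmQLFTest and Benjamini-Hochberg adjustment over all 14633 tested genes. No covariate or block was used. The study's methods name DESeq2 (1.42.0 here, as an alternative) and mention neither. Each standard error was obtained as the size of the log2 fold change over the square root of F. Correlations used log2 CPM after adding 0.5 counts. The fitting steps were also run on simulated counts. Those had no structure by replicate number or Y-linked counts, so they cannot check the fit against such structure.

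The 10 chains and all gene lists were chosen with earlier results of these data known. The genes named are the 10 chains, Ndrg3, the nearest tested protein-coding genes on either side of each chain, each listed gene past the threshold or otherwise the 3 most abundant of its list, and the 5 genes most like each chain that passed. Pax5, Zbtb16, Dntt, H2-Aa, Gbp3, Gbp7, Irgm1, Ly6c2 and Nkg7 were named beyond this rule after their values were seen. So were Fcgr3 and the other untested myeloid markers, and the genes given as the most abundant or unread of a list. Some genes that the rule covers are not reported here. Replicates of one group differed by a chi-square of 9.35 to 32.7 per gene, and none was counted as a repeat of another. The floor of 3 counts covers counting error only, since PCR copies cannot be told from separate molecules here. Alternatives covered the tool, the scaling, the filter, a Y-linked covariate, a replicate block and each library left out.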

Additional observations from a re-analysis of the deposited data

Results flagged for a closer look

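Among the 60 groups of 4 libraries checked for a library far from the rest, 2 were found, and chance alone gives about 1 in 20, or 3. Ndrg3ctrl replicate 2 had 340 CPM of Y-linked counts, while the other Ndrg3ctrl libraries were at or near 0. Ndrg3ctrl replicate 4 had 0.636% of its counts on mitochondrial genes, below the other libraries of its group, which lay between 0.803% and 0.820%. The 4 Ndrg3TKO libraries, at 0.571% to 0.712%, were also below those 3 controls, and the part of this share in the differences between the groups was not tested.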

How the results depend on the processing

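The number of genes past the threshold was 168 and became 309 with DESeq2, 412 with a Y-linked covariate, 274 with no filter on low counts, 92 in the 5 libraries under 1 Y-linked CPM (chosen after seeing the data), and 90 to 158 with each library left out. Of the receptor chains, 2 passed, against 4 with DESeq2 and 4 with no filter, which both added Il12rb1 and Il12rb2, 1 in the libraries under 1 Y-linked CPM, where Il18r1 remained, and 1 to 2 with each library left out. The count was 1 without Ndrg3TKO replicate 3, Ndrg3ctrl replicate 3 or Ndrg3ctrl replicate 4. Il18r1 passed in all 15 alternatives. The log2 fold change of Il18rap changed sign, to 0.0152 with the Y-linked covariate and over a range of −0.22 to 0.10 with each library left out, never with a call. The other chains kept their sign. Of the other pathway genes, 4 passed, 4 in each fit with a library left out and 3 to 5 under the rest but the block.

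Same-numbered libraries correlated with r = 0.171, 0.394, −0.0579 and 0.281 in their deviations from the group means, so 3 of 4 pairs exceeded 0.1. Pairing was taken only where every pair did, so these numbers were not taken to pair the samples. Of 8 libraries, 6 correlated best with their own number, a hint from the data. With the replicate block, 800 genes passed, with 6 receptor chains (Il6ra and Il6st besides the 4 named) and 12 other pathway genes. The cause of these changes was not tested. Depth limits Il18rap most, with 16 to 48 reads per library.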
